A study of Mus musculus and Homo sapiens with 176 samples.

Results

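The 72 heat shock and DnaJ chaperone genes described here are the features of the RNA tables named for an HSP70, HSP110, HSP90, small heat shock or mitochondrial chaperonin protein, or for a DnaJ protein of class A, B or C. They were picked by name alone from 24854 features, and their levels were read in nuclei of 2 brain regions. The RNA libraries form 4 groups of 2: cerebellar NeuN+, cerebellar NeuN-, prefrontal NeuN+ and prefrontal NeuN- nuclei. All 8 came from 1 C57BL/6 mouse, for which the labels name no transgene, mutation or treatment, in a study of mice 8 to 10 weeks old. NeuN is the neuronal nuclear antigen on which nuclei were sorted, with neurons sought in the NeuN+ gate and glia in the NeuN- gate. The study set out to compare histone marks and RNA between the gates and the regions, and its chromatin samples were not used here.

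Chaperones bind unfolded proteins and help them fold, move between compartments or be degraded. HSP70 proteins work in cycles of ATP hydrolysis that DnaJ proteins stimulate through their J domain and that HSP110 proteins reset by exchanging the nucleotide. HSP90 proteins finish the folding of kinases and receptors, small heat shock proteins hold unfolded clients without ATP, and the chaperonin of the mitochondrion encloses its clients in a barrel. Part of the family is induced by heat shock factor 1 under stress, and part is made all the time. Neurons depend on the constitutive members for synaptic vesicle traffic and for keeping aggregation-prone proteins soluble.

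Values are FPKM, the fragments mapped to a gene, set per kilobase of its transcript and per unit of library size, multiplied by a factor per library to bring the libraries to a common scale (scaled FPKM). All changes are log2 changes, on the scale of log2(scaled FPKM + 1), tested with limma across all 14376 features kept, and a gene was called at a Benjamini-Hochberg adjusted p under 0.05. The p-values set a difference of group means against the spread between the 2 libraries of a group, pooled over the 4 groups and moderated over features. Because the libraries share a mouse, that spread may be technical and says nothing of how mice vary. Fewer cells of a type and less RNA per cell cannot be told apart in such pools. The read depth behind the FPKM is unknown.

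Marker levels bear on the labels. The summed level of 8 neuronal genes was 1263 to 1269 scaled FPKM in cerebellar NeuN+, 633 to 638 in cerebellar NeuN-, 1407 to 1419 in prefrontal NeuN+ and 1794 to 1919 in prefrontal NeuN- libraries. The prefrontal NeuN- libraries thus had the highest neuronal sum, against what their gate was meant to hold, although 4 of these 8 genes were higher and 4 lower in prefrontal NeuN+ than in prefrontal NeuN-. The 5 excitatory cortical genes had the other order, with sums of 47.0 to 47.3 in prefrontal NeuN+ and 20.6 to 27.002 in prefrontal NeuN- (4 higher and 0 lower in NeuN+), and sums of 4.64 to 4.75 in cerebellar NeuN+ and 1.60 to 1.94 in cerebellar NeuN-. Sums of 8 oligodendrocyte genes were 212 to 217 in cerebellar NeuN+, 1601 to 1625 in cerebellar NeuN-, 88.1 to 94.2 in prefrontal NeuN+ and 1885 to 1899 in prefrontal NeuN-. The 8 astrocyte genes summed to 120.3 to 126 in cerebellar NeuN+, 704 to 711 in cerebellar NeuN-, 69.5 to 69.7 in prefrontal NeuN+ and 827 to 866 in prefrontal NeuN-. Microglial genes summed to 678 to 697 in prefrontal NeuN- and to 21.9 to 67.8 in the other libraries. The 6 granule cell genes summed to 722 to 730 in cerebellar NeuN+, 199.3 to 201 in cerebellar NeuN-, 25.8 to 26.4 in prefrontal NeuN+ and 30.5 to 32.5 in prefrontal NeuN-. In prefrontal NeuN+ 3 of them reached 1 FPKM, while Fat2 and Gabra6 were listed at 0. Of 8 vessel genes, Cldn5 and Flt1 were listed at 0 in both NeuN+ groups, and Rgs5 in cerebellar NeuN+. Pecam1 was at 0 in both NeuN- groups and in prefrontal NeuN+, and Tek was at 0 in cerebellar NeuN-. What part these differences in cell makeup play in the chaperone levels was not tested.

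Hspa8, Hsp90ab1 and Hsp90aa1 had the highest levels of the family in all 8 libraries, and the stress-induced HSP70 genes stayed below 1 scaled FPKM. Hspa8, the constitutive HSP70 of the cytosol that also uncoats clathrin vesicles, had the highest level of the 72 genes in every library. It was listed at 304 and 307 scaled FPKM in cerebellar NeuN+, 251 and 249.6 in cerebellar NeuN-, 822 and 836 in prefrontal NeuN+ and 1115 and 1228 in prefrontal NeuN-. Every prefrontal library was above every cerebellar one. Hspa8 made up 17.2% to 17.7% of the summed scaled FPKM of the 72 genes in cerebellar libraries and 30.4% to 35.7% in prefrontal ones. The cytosolic HSP90 genes followed: Hsp90ab1, the constitutive form, stood at 195 and 195 scaled FPKM in cerebellar NeuN+, 150.3 and 147 in cerebellar NeuN-, 269.8 and 269 in prefrontal NeuN+ and 313 and 309 in prefrontal NeuN-. Hsp90aa1, the form that stress can raise further, stood at 176 and 183 scaled FPKM in cerebellar NeuN+, 124 and 121 in cerebellar NeuN-, 209 and 209.5 in prefrontal NeuN+ and 279 and 288 in prefrontal NeuN-. In all 8 libraries Hsp90aa1 was at 0.774 to 0.940 of the Hsp90ab1 level.

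By contrast Hspa1a, an inducible HSP70 gene, stood at 0.226 and 0.189 scaled FPKM in cerebellar NeuN+, 0.567 and 0.622 in cerebellar NeuN-, 0.415 and 0.683 in prefrontal NeuN+ and 0.774 and 0.919 in prefrontal NeuN-. Its neighbour Hspa1b was at 0.0940 to 0.750. The pair are near-identical copies, so how fragments were split between them is uncertain. Both missed the filter of at least 1 FPKM in at least 2 libraries and were not tested. In the authors' deposited tables the highest upper confidence limit of Hspa1a was 1.32 FPKM, in a prefrontal NeuN- library. Dnajb1, the J protein that is induced together with them, stood at 1.32 and 1.41 scaled FPKM in cerebellar NeuN+, 2.59 and 2.03 in cerebellar NeuN-, 2.89 and 2.86 in prefrontal NeuN+ and 3.30 and 2.45 in prefrontal NeuN-. Between the gates of prefrontal cortex its change did not pass (log2 change 0.01, SE 0.128, limma adjusted p = 0.96). In cerebellum it was lower in NeuN+ nuclei (log2 change -0.48, SE 0.128, limma adjusted p = 0.013), a call that was lost without replicate 1 of cerebellar NeuN+ (adjusted p = 0.060) or of cerebellar NeuN- (adjusted p = 0.075) and with quantile normalization (adjusted p = 0.43).

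**Figure D1:**
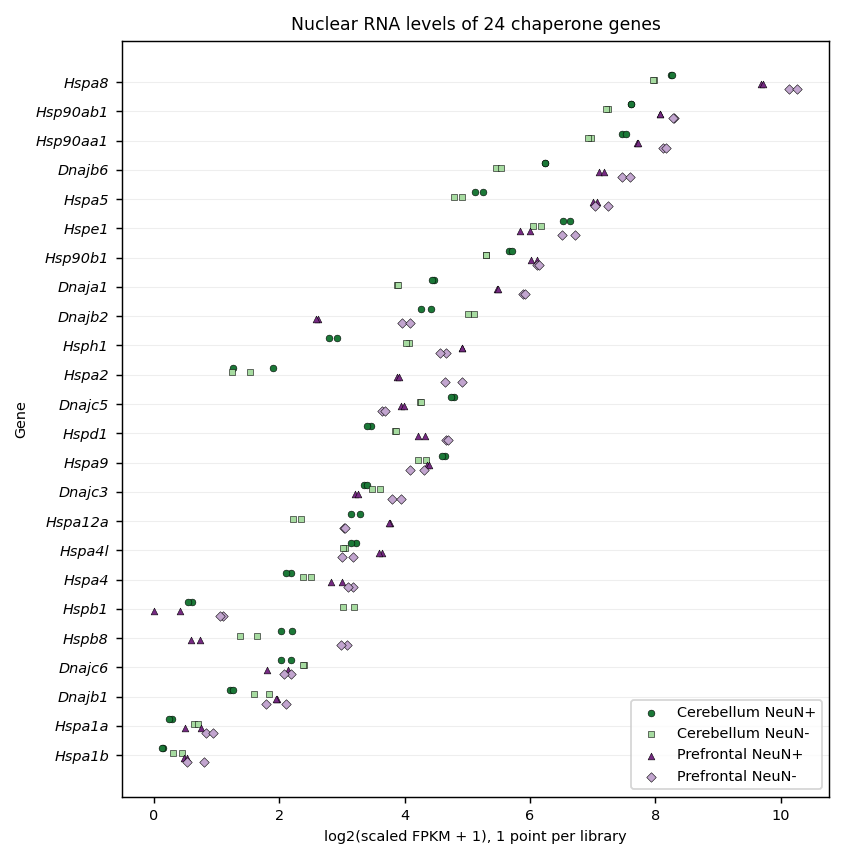
Nuclear RNA levels of 24 chaperone genes chosen as the best known of each class, as log2(scaled FPKM + 1) on the horizontal axis, with 1 point per library and 1 marker shape per group. Hspa8 lies farthest right in all groups, with its prefrontal libraries at 822 to 1228 scaled FPKM, and Hspa1a and Hspa1b lie below 1 scaled FPKM in all libraries.

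Of the 72 genes, 63 passed the filter. Dnajb8, Dnajb13, Dnajc22 and Dnajc5g were listed at 0 in all libraries. The other 5 that were not tested, Dnajb5, Hspa12b, Hspa1a, Hspa1b and Hspb7, were at most 1.14 scaled FPKM in any library. A further 5 genes had a group with both libraries listed at 0 (Dnajb7, Dnajc5b, Hspb2, Hspb3 and Hspb9), and the fitted changes of these depend on the pseudocount. The mm9 span of 12 members overlaps another feature, among them Dnaja1, Dnajb6, Dnajb11 and Dnajc19, and their FPKM can hold fragments of that feature. Among the 64 genes with a group mean of at least 1, the highest mean was in cerebellar NeuN+ for 10, in cerebellar NeuN- for 11, in prefrontal NeuN+ for 15 and in prefrontal NeuN- for 28. The like count over all features was not made, so these numbers do not set the family apart from other genes.

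Cerebellum was compared with prefrontal cortex within each gate, which asks how far nuclei of the same gate differ between regions. The 2 NeuN- pools were unlike in their markers, with neuronal sums of 633 to 638 in cerebellum against 1794 to 1919 in prefrontal cortex and microglial sums of 67.7 to 67.8 against 678 to 697. Chaperone genes were more often lower in cerebellum than higher. In NeuN+ nuclei 35 of the 63 were lower in cerebellum (55.6%, against 40.7% of all features tested) and 15 were higher (23.8%, against 36.5%). In NeuN- nuclei 37 were lower (58.7%, against 39.0%) and 13 higher (20.6%, against 40.5%). The median log2 change of the members was -0.37 in NeuN+ and -0.56 in NeuN-, beside medians of -0.03 and 0.02 over all features. In both gates 26 members were lower (41.3%, against 25.2% of all features) and 7 were higher (11.1%, against 23.6%). The NeuN+ and the NeuN- comparisons share no library, but they share the mouse and the pooled spread of the fit, so they are not independent. How the libraries are scaled moved the median of all features in NeuN- between -0.13 and 0.26 over 4 scalings, and the median of the members moved with it, between -0.74 and -0.28. The split in NeuN- was 33 lower and 19 higher after rescaling to a common sum, and the number lower in both gates was 25 to 30 over the 4 scalings.

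**Figure D2:**
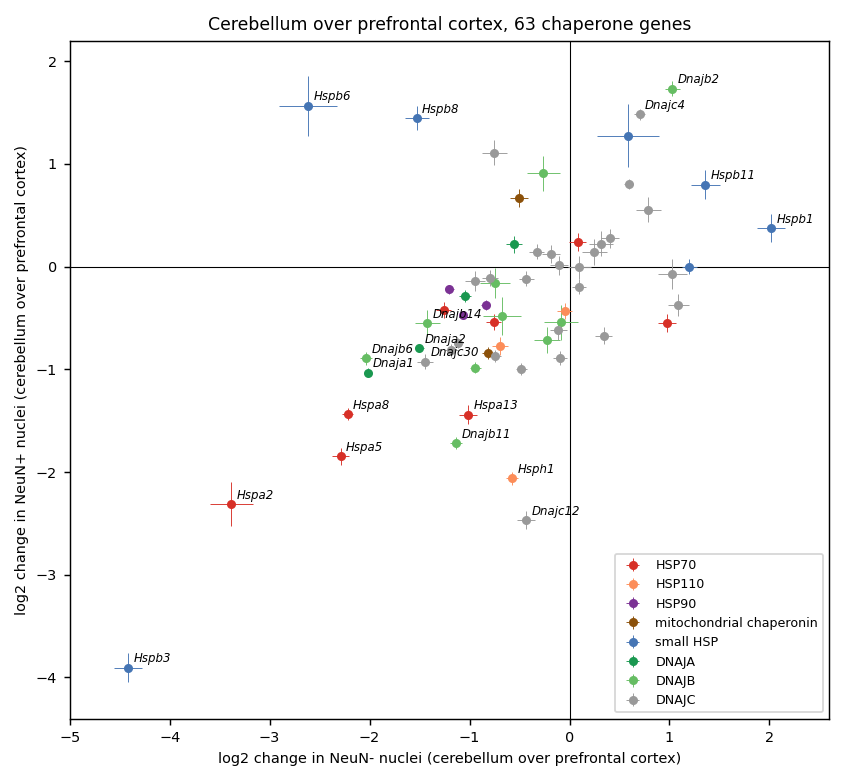
Log2 change of 63 chaperone genes, cerebellum over prefrontal cortex, in NeuN- nuclei (horizontal axis) and NeuN+ nuclei (vertical axis), with standard errors and 1 colour per class. Most genes lie at the lower left, led by Hspb3, Hspa2, Hspa5 and Hspa8, while Hspb6 and Hspb8 lie in the upper left. The positions of Hspb3, Hspb9 and other genes with a group at 0 depend on the pseudocount.

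Most HSP70 genes were lower in cerebellum. Of 8 tested, 7 were lower in NeuN+ nuclei and 6 in NeuN- nuclei (40.7% and 39.0% of all features), and these counts were the same under all 4 scalings. Hspa8 was lower in cerebellum in NeuN+ (log2 change -1.44, SE 0.0583, limma adjusted p = 1.6e-06) and in NeuN- (log2 change -2.22, SE 0.0583, limma adjusted p = 4.4e-07). Hspa2, known best from the testis, where it serves meiosis and sperm formation, stood at 1.41 and 2.75 scaled FPKM in cerebellar NeuN+, 1.90 and 1.38 in cerebellar NeuN-, 13.8 and 14.1 in prefrontal NeuN+ and 24.01 and 29.0 in prefrontal NeuN-. No cerebellar library came near a prefrontal one, and the difference passed in NeuN+ (log2 change -2.31, SE 0.214, limma adjusted p = 7.0e-05) and in NeuN- (log2 change -3.38, SE 0.214, limma adjusted p = 1.1e-05). Hspa14, a ribosome-associated HSP70, stood at 18.2 and 19.9 scaled FPKM in cerebellar NeuN+, 9.19 and 9.93 in cerebellar NeuN-, 25.7 and 26.0 in prefrontal NeuN+ and 22.8 and 25.8 in prefrontal NeuN-. Its difference was larger in NeuN- (log2 change -1.26, SE 0.0775, limma adjusted p = 9.6e-06) than in NeuN+ (log2 change -0.42, SE 0.0775, limma adjusted p = 0.0022), and the difference between the 2 passed its own test (log2 change 0.84, SE 0.110, limma adjusted p = 5.7e-04). Hspa12a, a distant relative of the family, was lower in cerebellum, with log2 changes of -0.54 in NeuN+ and -0.76 in NeuN-. In NeuN- nuclei Hspa9 did not pass, and Hspa1l was higher in cerebellum (log2 change 0.97), although Hspa1l was lower in NeuN+. The exception in NeuN+ was Hspa9, the HSP70 of the mitochondrial matrix, at 23.9 and 23.2 scaled FPKM in cerebellar NeuN+, 19.3 and 17.6 in cerebellar NeuN-, 19.5 and 20.1 in prefrontal NeuN+ and 15.9 and 18.9 in prefrontal NeuN-. Its small increase there (log2 change 0.24, SE 0.0858, limma adjusted p = 0.038) was lost without any library of the NeuN+ groups (adjusted p 0.082 to 0.14) and with replicate number as a block (adjusted p = 0.056).

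All 3 HSP90 genes were lower in cerebellum in both gates, under all 4 scalings, and so were all 3 HSP110 genes in NeuN+. Of all features 40.7% were lower in NeuN+ and 39.0% in NeuN-. Hsp90aa1 had a log2 change of -0.22 in NeuN+ and -1.20 in NeuN-. Hsp90ab1 had a log2 change of -0.47 in NeuN+ and -1.06 in NeuN-. For both genes the difference was larger in NeuN- nuclei, by 0.99 and 0.59 on the log2 scale, which passed (limma adjusted p = 2.6e-05 and 1.2e-04). Hsph1, the inducible nucleotide exchange factor of HSP70, stood at 5.92 and 6.62 scaled FPKM in cerebellar NeuN+, 15.8 and 15.3 in cerebellar NeuN-, 29.2 and 29.3 in prefrontal NeuN+ and 24.4 and 22.8 in prefrontal NeuN-. It was lower in cerebellar than in prefrontal NeuN+ nuclei (log2 change -2.06, SE 0.0637, limma adjusted p = 5.5e-07) and less so in NeuN- (log2 change -0.57, SE 0.0637, limma adjusted p = 1.7e-04). Hspa4, its constitutive relative, was lower as well, with log2 changes of -0.77 in NeuN+ and -0.69 in NeuN-. Hspa4l was lower in cerebellar NeuN+ (log2 change -0.43, SE 0.0760, limma adjusted p = 0.0018), and in NeuN- its change of -0.05 did not pass.

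Several J protein genes were also lower in cerebellum. Of 4 DNAJA genes 3 were lower in NeuN+ and 4 in NeuN-, and of 10 DNAJB genes 6 in either gate. Not all of these serve the cytosol. Dnaja3, lower in both gates, is mitochondrial. Dnajb11 and Dnajb14 (both gates), Dnajb12 (NeuN+) and Dnajb9 (NeuN-) are counted again below with the endoplasmic reticulum. Of the 26 DNAJC genes 11 were lower in NeuN+ and 11 in NeuN- (42.3% each), near the 40.7% and 39.0% of all features. Higher were 5 in NeuN+ (19.2%, against 36.5% of all features) and 8 in NeuN- (30.8%, against 40.5%), where FPKM rescaled to a common sum gave 8 lower and 12 higher. Dnaja1, a general partner of Hspa8, stood at 21.3 and 20.6 scaled FPKM in cerebellar NeuN+, 13.7 and 13.9 in cerebellar NeuN-, 43.5 and 44.1 in prefrontal NeuN+ and 58.5 and 59.3 in prefrontal NeuN-. No cerebellar library reached a prefrontal one, and both changes passed (log2 change -1.03, SE 0.0407, limma adjusted p = 1.4e-06 in NeuN+, log2 change -2.02, SE 0.0407, limma adjusted p = 2.1e-07 in NeuN-). Dnaja2 followed the same order, with changes of -0.79 in NeuN+ and -1.50 in NeuN-. Dnajb6, which keeps polyglutamine proteins from aggregating, stood at 74.7 and 74.9 scaled FPKM in cerebellar NeuN+, 42.9 and 45.4 in cerebellar NeuN-, 136 and 144 in prefrontal NeuN+ and 175 and 193 in prefrontal NeuN-. It was lower in cerebellum in both gates (log2 change -0.89 in NeuN+, -2.03 in NeuN-, limma adjusted p = 6.7e-07 in NeuN-). Dnajb4 had log2 changes of -0.98 in NeuN+ and -0.94 in NeuN-. Dnajc12, a J protein that serves the aromatic amino acid hydroxylases, stood at 1.17 and 1.43 scaled FPKM in cerebellar NeuN+, 8.94 and 8.70 in cerebellar NeuN-, 11.0 and 12.5 in prefrontal NeuN+ and 12.03 and 12.6 in prefrontal NeuN-. It was low in cerebellar NeuN+ alone of the groups, with log2 change -2.47, SE 0.0860, limma adjusted p = 8.6e-07 against prefrontal NeuN+ and log2 change -2.10, SE 0.0860, limma adjusted p = 2.4e-06 against cerebellar NeuN-.

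A smaller group was higher in cerebellum in both gates: Dnajb2, Dnajc1, Dnajc4, Dnajc5, Dnajc25, Hspb1 and Hspb11. Dnajb2, a J protein that can bind ubiquitin and pass clients to the proteasome, stood at 20.4 and 18.1 scaled FPKM in cerebellar NeuN+, 31.2 and 33.3 in cerebellar NeuN-, 5.18 and 4.98 in prefrontal NeuN+ and 14.6 and 16.0 in prefrontal NeuN-. The cerebellar excess passed in NeuN+ (log2 change 1.73, SE 0.0756, limma adjusted p = 2.2e-06) and in NeuN- (log2 change 1.03, SE 0.0756, limma adjusted p = 2.1e-05), and within each region Dnajb2 was lower in NeuN+ nuclei. Dnajc4 stood at 74.8 and 76.4 scaled FPKM in cerebellar NeuN+, 70.8 and 66.3 in cerebellar NeuN-, 25.3 and 27.6 in prefrontal NeuN+ and 41.8 and 41.7 in prefrontal NeuN-. It was higher in cerebellar NeuN+ (log2 change 1.48, SE 0.0558, limma adjusted p = 1.2e-06) and cerebellar NeuN- (log2 change 0.70, SE 0.0558, limma adjusted p = 3.1e-05). Dnajc5 encodes cysteine string protein alpha, the J protein of synaptic vesicles, and stood at 26.8 and 25.7 scaled FPKM in cerebellar NeuN+, 17.98 and 18.3 in cerebellar NeuN-, 14.4 and 14.8 in prefrontal NeuN+ and 11.5 and 11.95 in prefrontal NeuN-. It was thus highest in cerebellar NeuN+ libraries (log2 change 0.80, SE 0.0486, limma adjusted p = 9.3e-06 against prefrontal NeuN+). Hspb11, a subunit of intraflagellar transport despite its name, stood at 18.7 and 24.1 scaled FPKM in cerebellar NeuN+, 24.9 and 25.7 in cerebellar NeuN-, 11.6 and 11.9 in prefrontal NeuN+ and 10.5 and 8.14 in prefrontal NeuN-, and the log2 changes of Dnajc25 were 0.55 in NeuN+ and 0.79 in NeuN-. Dnajc6 encodes auxilin, which recruits Hspa8 to clathrin coats, and stood between 2.48 and 4.24 in all libraries. None of its 5 comparisons passed (limma adjusted p 0.091 to 0.62).

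Most chaperones of the endoplasmic reticulum were lower in cerebellum. Of 10 such members 7 were lower in cerebellar NeuN+ and 8 in cerebellar NeuN- (40.7% and 39.0% of all features), a grouping made after the values were seen. All 10 were already counted above in their classes, so these counts add no further genes. Hspa5 encodes BiP, the HSP70 of that compartment, and stood at 33.9 and 37.1 scaled FPKM in cerebellar NeuN+, 29.1 and 26.6 in cerebellar NeuN-, 133 and 128 in prefrontal NeuN+ and 130.5 and 150.0 in prefrontal NeuN-. Cerebellar libraries were all far below prefrontal ones, in NeuN+ (log2 change -1.85, SE 0.0844, limma adjusted p = 2.6e-06) and NeuN- (log2 change -2.29, SE 0.0844, limma adjusted p = 1.4e-06). Between the gates of prefrontal cortex the change was -0.10 and did not pass (limma adjusted p = 0.31). Its J partner Dnajb11 stood at 18.6 and 17.1 scaled FPKM in cerebellar NeuN+, 30.8 and 28.8 in cerebellar NeuN-, 59.9 and 62.3 in prefrontal NeuN+ and 66.6 and 66.5 in prefrontal NeuN-, with log2 change -1.72, SE 0.0569, limma adjusted p = 7.1e-07 in NeuN+ and log2 change -1.13, SE 0.0569, limma adjusted p = 4.2e-06 in NeuN-. Hspa13, a microsomal HSP70, had log2 changes of -1.44 in NeuN+ and -1.02 in NeuN-. Dnajc10, a reductase that works with BiP, had log2 changes of -0.81 in NeuN+ and -1.18 in NeuN-. Hsp90b1, the HSP90 of the compartment, stood at 49.99 and 51.3 scaled FPKM in cerebellar NeuN+, 38.2 and 38.4 in cerebellar NeuN-, 67.9 and 64.0 in prefrontal NeuN+ and 68.5 and 69.9 in prefrontal NeuN-, a smaller difference (log2 change -0.37 in NeuN+, -0.84 in NeuN-). Dnajc3, which restrains the translational arm of the unfolded protein response, did not follow. It stood at 9.26 and 9.55 scaled FPKM in cerebellar NeuN+, 11.2 and 10.1 in cerebellar NeuN-, 8.26 and 8.55 in prefrontal NeuN+ and 13.0 and 14.4 in prefrontal NeuN-, with a change of 0.15 in NeuN+ that did not pass and of -0.33 in NeuN- that was lost after rescaling to a common sum (adjusted p = 0.59).

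The promoters of Hspa5, Hsp90b1 and Dnajc3 are shown because theirs were the member windows that matched the motif below. That these 3 genes share it thus follows from how they were picked. They are known targets of the unfolded protein response and differed in size of change. The endoplasmic reticulum stress element, searched on both strands as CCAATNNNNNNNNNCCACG, was found in 3 of the 58 members with a promoter window in the RefSeq table (GRCm38.p6, 250 bases before to 50 bases after a gene's start), and in 0.119% of all 32851 windows of that length. The 58 members have 75 windows, so the count of genes is not like the share of windows. The matches are in capitals, and 2 lie in the Hsp90b1 window, on opposite strands.
Hspa5, chr2:34771840-34772139, plus strand: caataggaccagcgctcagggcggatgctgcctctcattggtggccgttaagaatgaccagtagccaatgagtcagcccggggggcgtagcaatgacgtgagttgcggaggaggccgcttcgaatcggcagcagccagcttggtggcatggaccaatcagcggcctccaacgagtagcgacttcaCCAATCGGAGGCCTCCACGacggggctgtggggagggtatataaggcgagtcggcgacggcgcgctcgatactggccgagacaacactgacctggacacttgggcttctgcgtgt
Hsp90b1, chr10:86705503-86705686, minus strand: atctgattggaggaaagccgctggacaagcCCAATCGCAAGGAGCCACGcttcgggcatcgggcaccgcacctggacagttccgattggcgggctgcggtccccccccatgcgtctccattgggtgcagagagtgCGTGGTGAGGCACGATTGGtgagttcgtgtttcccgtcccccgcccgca
Dnajc3, chr14:118937797-118937875, plus strand: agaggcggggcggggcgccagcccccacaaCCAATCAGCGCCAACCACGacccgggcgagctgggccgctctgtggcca
In these nuclei the log2 change in NeuN-, cerebellum over prefrontal cortex, was -2.29 for Hspa5, -0.84 for Hsp90b1 and -0.33 for Dnajc3. A match is a description of the letters and not a measured site.

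The partners of BiP were split in the same comparison. Xbp1, a transcription factor of the unfolded protein response, stood at 11.5 and 12.4 scaled FPKM in cerebellar NeuN+, 11.1 and 10.3 in cerebellar NeuN-, 55.4 and 56.1 in prefrontal NeuN+ and 52.2 and 59.6 in prefrontal NeuN-, and was lower in cerebellum (log2 change -2.13 in NeuN+, -2.28 in NeuN-). The disulfide isomerase gene Pdia6 stood at 25.00 and 25.5 scaled FPKM in cerebellar NeuN+, 26.5 and 25.9 in cerebellar NeuN-, 121 and 126 in prefrontal NeuN+ and 126 and 131 in prefrontal NeuN- (log2 change -2.25 and -2.25), and Pdia4 was also lower (log2 change -1.89 and -2.75). Ddit3, which encodes the stress transcription factor CHOP, was higher in cerebellum, at 74.0 and 66.6 scaled FPKM in cerebellar NeuN+, 131 and 128 in cerebellar NeuN-, 32.2 and 37.0 in prefrontal NeuN+ and 65.9 and 71.2 in prefrontal NeuN-. Over the list of 15 tested partners 9 were lower, 3 higher and 3 not passing in NeuN+, and 8 lower, 3 higher and 4 not passing in NeuN-, where 40.7% and 39.0% of all features were lower.

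NeuN+ was compared with NeuN- within each region, which asks how nuclei of the 2 gates differ there. In prefrontal cortex the sum of neuronal markers was 1407 to 1419 in NeuN+ and 1794 to 1919 in NeuN-, so its gates are not neurons against glia by that list. The family leaned towards NeuN+ in cerebellum and, less firmly, away from it in prefrontal cortex. In cerebellum 30 of 63 members were higher in NeuN+ (47.6%, against 32.4% of all features) and 17 lower (27%, against 39.2%), with a median log2 change of 0.18 beside -0.04 over all features. In prefrontal cortex 17 were higher (27%, against 35.0%) and 28 lower (44.4%, against 37.6%), with a median of -0.12 beside -0.01. The prefrontal split depends on scaling. It was 10 higher and 37 lower with unscaled FPKM, 22 and 20 with quantile normalization and 25 and 19 after rescaling to a common sum, as the median of all features moved between -0.19 and 0.14. Relative to that median, 26 to 28 of the 63 members were above it in prefrontal cortex and 39 in cerebellum under all 4 scalings. The prefrontal NeuN- libraries also had larger sums of deposited FPKM (414230 and 426851) than the other 6 (289350 to 307198), and what part this plays was not tested.

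The gate change was then compared between the regions, as the cerebellar change minus the prefrontal change. It is the same quantity and test as the difference of region changes between gates given above for Hspa14, Hsp90aa1 and Hsp90ab1. It was higher in cerebellum for 29 members (46.0%, against 33.1% of all features) and lower for 17 (27%, against 37.0%). The split was 33 and 12 with unscaled FPKM, 28 and 12 with quantile normalization and 22 and 21 after rescaling to a common sum, as the median of all features moved between -0.23 and 0.13. Without replicate 1 of cerebellar NeuN- the count of lower members was 10. Of the 63 members 13 were lower in prefrontal NeuN+ and higher in cerebellar NeuN+ (20.6%, against 8.48% of all features), and 3, Dnajc13, Hspa1l and Hsph1, went the other way (4.76%, against 9.60%). The 13 were Dnaja1, Dnaja2, Dnaja3, Dnajb3, Dnajb6, Dnajc24, Dnajc30, Hsp90aa1, Hsp90ab1, Hspa8, Hspb6, Hspb8 and Hspe1. Their number was 9 after quantile normalization or after rescaling to a common sum, 9 without replicate 2 of cerebellar NeuN- and 16 with unscaled FPKM.

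**Figure D3:**
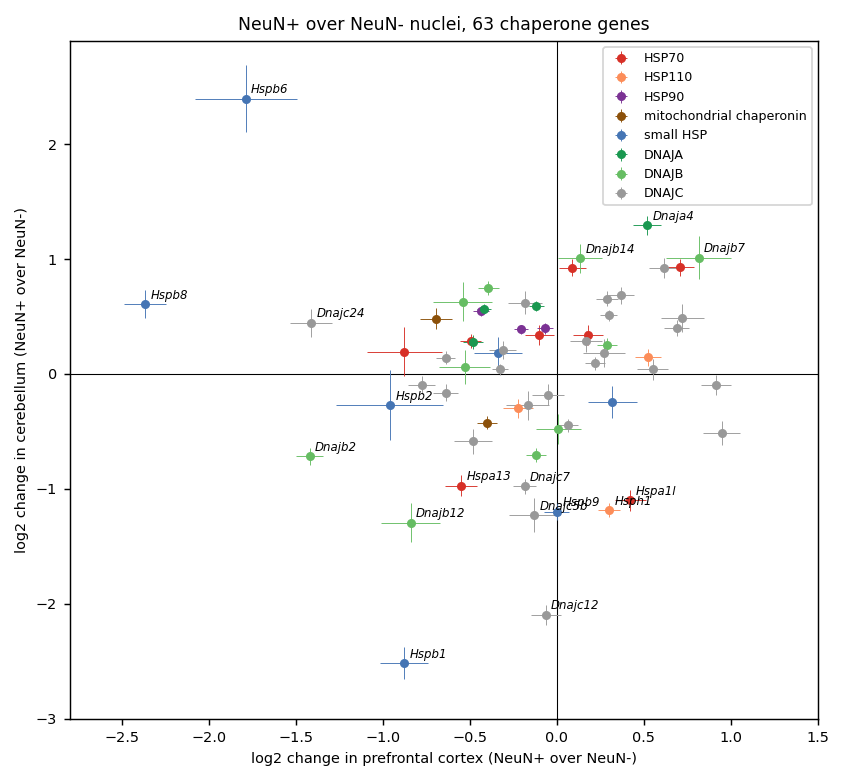
Log2 change of 63 chaperone genes, NeuN+ over NeuN- nuclei, in prefrontal cortex (horizontal axis) and cerebellum (vertical axis), with standard errors and 1 colour per class. The upper left holds the 13 genes called lower in prefrontal NeuN+ and higher in cerebellar NeuN+, with Hspb6 and Hspb8 far out and the HSP90 and DNAJA genes near the centre. Dnajc12 and Hspb1 lie lowest, and the positions of Hspb2, Hspb9, Dnajb7 and Dnajc5b, each with a group at 0, depend on the pseudocount.

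All 3 HSP90 genes and all 4 DNAJA genes were higher in cerebellar NeuN+ than in cerebellar NeuN- (32.4% of all features). For all 7 the gate change was higher in cerebellum than in prefrontal cortex (33.1% of all features). Both counts were the same under all 4 scalings. Hsp90aa1 was higher there (log2 change 0.55, SE 0.0435, limma adjusted p = 4.1e-05) and lower in prefrontal NeuN+ (log2 change -0.44, SE 0.0435, limma adjusted p = 1.3e-04), and the difference of these changes was 0.99 (SE 0.0615, limma adjusted p = 2.6e-05). Dnaja1 had the same pair of changes, 0.57 in cerebellum and -0.42 in prefrontal cortex. Hspa8 was higher in cerebellar NeuN+ (log2 change 0.29, SE 0.0583, limma adjusted p = 0.004) and lower in prefrontal NeuN+ (log2 change -0.50, SE 0.0583, limma adjusted p = 2.9e-04), although with quantile normalization the prefrontal change was -0.12 and did not pass (adjusted p = 0.17). Dnajb6 likewise had log2 changes of 0.75 in cerebellum and -0.39 in prefrontal cortex, where the call was lost with quantile normalization (adjusted p = 0.23). The prefrontal change of Hsp90ab1, -0.21, turned to 0.04 with quantile normalization and 0.01 after rescaling to a common sum, while its cerebellar change was 0.39. Dnaja4 was higher in NeuN+ in both regions, at 15.2 and 15.8 scaled FPKM in cerebellar NeuN+, 6.28 and 5.24 in cerebellar NeuN-, 13.4 and 13.0 in prefrontal NeuN+ and 8.73 and 9.11 in prefrontal NeuN-.

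The members with the opposite order, Hsph1, Hspa1l and Dnajc13, were fewer. Hsph1 was lower in cerebellar NeuN+ (log2 change -1.19, SE 0.0637, limma adjusted p = 7.2e-06), and its prefrontal increase (log2 change 0.30, SE 0.0637, limma adjusted p = 0.005) was lost with unscaled FPKM (adjusted p = 0.38). Hspa1l, another HSP70 gene known from the testis, stood at 2.18 and 2.43 scaled FPKM in cerebellar NeuN+, 6.40 and 5.77 in cerebellar NeuN-, 3.95 and 3.71 in prefrontal NeuN+ and 2.80 and 2.42 in prefrontal NeuN-, lower in cerebellar NeuN+ (log2 change -1.10) and higher in prefrontal NeuN+ (log2 change 0.42). Dnajc13, a J protein of endosomes, stood at 4.21 and 4.33 scaled FPKM in cerebellar NeuN+, 6.16 and 6.89 in cerebellar NeuN-, 5.94 and 5.71 in prefrontal NeuN+ and 2.89 and 2.22 in prefrontal NeuN-, with gate changes of -0.51 in cerebellum and 0.95 in prefrontal cortex (log2). Dnajc7, a J protein with repeats that also bind HSP90, stood at 7.62 and 8.42 scaled FPKM in cerebellar NeuN+, 17.2 and 16.4 in cerebellar NeuN-, 15.6 and 15.7 in prefrontal NeuN+ and 17.1 and 18.8 in prefrontal NeuN-, lower in cerebellar NeuN+ (log2 change -0.98, SE 0.0687, limma adjusted p = 2.3e-05). Dnajc24, among the 13 listed and needed for the diphthamide modification of elongation factor 2, stood at 9.56 and 9.004 scaled FPKM in cerebellar NeuN+, 7.52 and 5.68 in cerebellar NeuN-, 3.71 and 3.83 in prefrontal NeuN+ and 12.4 and 11.0 in prefrontal NeuN-. It was lower in prefrontal NeuN+ (log2 change -1.41, SE 0.122, limma adjusted p = 6.5e-05) and higher in cerebellar NeuN+ (log2 change 0.45, SE 0.122, limma adjusted p = 0.015). Dnajc21, a factor of ribosome assembly, was higher in prefrontal NeuN+ (log2 change 0.92, SE 0.0857, limma adjusted p = 9.8e-05), and in cerebellum its change of -0.10 did not pass.

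The mitochondrial members gave a case of neighbours with different levels. Hspd1 encodes the barrel of the mitochondrial chaperonin and Hspe1 its lid, and in mm9 they lie 215 bases apart on chromosome 1, at 55134678 to 55144776 and 55144992 to 55148161. Hspe1 stood at 99.0 and 91.6 scaled FPKM in cerebellar NeuN+, 71.3 and 65.0 in cerebellar NeuN-, 62.9 and 56.3 in prefrontal NeuN+ and 104 and 90.7 in prefrontal NeuN-. Hspd1 stood at 10.04 and 9.52 scaled FPKM in cerebellar NeuN+, 13.4 and 13.5 in cerebellar NeuN-, 19.2 and 17.5 in prefrontal NeuN+ and 24.3 and 24.8 in prefrontal NeuN-. The ratio of Hspe1 to Hspd1 was thus 9.87 and 9.63 in cerebellar NeuN+, 5.32 and 4.80 in cerebellar NeuN-, 3.28 and 3.21 in prefrontal NeuN+ and 4.27 and 3.66 in prefrontal NeuN-. In NeuN+ nuclei Hspe1 was higher in cerebellum (log2 change 0.67, SE 0.0917, limma adjusted p = 5.0e-04) and Hspd1 lower (log2 change -0.84, SE 0.0577, limma adjusted p = 1.6e-05). Within cerebellum Hspe1 was higher in NeuN+ (log2 change 0.48) and Hspd1 lower (log2 change -0.43), while in prefrontal cortex both were lower in NeuN+ (log2 change -0.70 and -0.40). In NeuN- nuclei both were lower in cerebellum, and the Hspe1 call there was lost after quantile normalization (adjusted p = 0.20) and after rescaling to a common sum (adjusted p = 0.070). Among other mitochondrial members, Dnajc15, an inner membrane J protein, stood at 42.1 and 47.2 scaled FPKM in cerebellar NeuN+, 49.3 and 46.1 in cerebellar NeuN-, 49.0 and 47.3 in prefrontal NeuN+ and 88.2 and 78.5 in prefrontal NeuN-, with prefrontal NeuN- alone above the rest. Dnajc11 was higher in NeuN+ in both regions (log2 change 0.92 in cerebellum, 0.61 in prefrontal cortex), and Dnajc19, a subunit of the import motor, stood between 90.8 and 120.1 in all libraries.

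Hspe1 and Hspd1 are read in opposite directions from the stretch between them, which is why it is shown. A heat shock element of 3 units, searched on both strands as GAANNTTCNNGAA, was found in the windows of 4 of the 58 members (Dnajb6, Hspd1, Hspe1 and Hsph1) and in 0.603% of all 32851 windows. The 58 members have 75 windows, so the count of genes is not like the share of windows. In the Hspe1 window 2 matches on opposite strands overlap, and 285 of its bases are shared with a window of Hspd1. The Hspd1 and Hspe1 matches are the same bases. Capitals mark the matches, and neither motif overlaps the other in these windows.
Hspe1, chr1:55087898-55088197, plus strand: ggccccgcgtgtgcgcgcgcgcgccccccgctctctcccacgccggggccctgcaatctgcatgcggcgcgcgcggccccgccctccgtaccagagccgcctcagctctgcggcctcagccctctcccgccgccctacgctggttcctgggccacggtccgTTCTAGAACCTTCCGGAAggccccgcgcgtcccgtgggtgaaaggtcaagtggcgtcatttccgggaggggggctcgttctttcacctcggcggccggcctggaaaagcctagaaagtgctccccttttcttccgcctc
Dnajb6, chr5:29735822-29735894, plus strand: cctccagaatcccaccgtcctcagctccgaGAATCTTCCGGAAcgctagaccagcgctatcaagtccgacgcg
Hsph1, chr5:149636287-149636330, minus strand: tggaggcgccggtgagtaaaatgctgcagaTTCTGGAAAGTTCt
The 4 genes with this match differed in direction. In cerebellar against prefrontal NeuN+ nuclei the log2 changes were 0.67 for Hspe1, -0.84 for Hspd1, -0.89 for Dnajb6 and -2.06 for Hsph1. The table holds no window for Dnajc11, Dnajc12, Dnajc18, Dnajc2, Dnajc22, Dnajc30, Dnajc5, Dnajc5b, Hsp90aa1, Hsp90ab1, Hspa13, Hspa8, Hspa9 and Hspb2.

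Small heat shock genes differed among themselves in level and order. Hspb11 was the highest of them in cerebellum, and Hspb3 in prefrontal cortex, while the other 6 stayed below 10 scaled FPKM. Hspb1, which binds actin and holds unfolded clients, stood at 0.529 and 0.466 scaled FPKM in cerebellar NeuN+, 7.06 and 8.15 in cerebellar NeuN-, 0.329 and 0 in prefrontal NeuN+ and 1.15 and 1.09 in prefrontal NeuN-. The cerebellar NeuN- libraries alone were well above the rest. Between the cerebellar gates Hspb1 was lower in NeuN+ (log2 change -2.52, SE 0.140, limma adjusted p = 8.2e-06), and between the NeuN- groups it was higher in cerebellum (log2 change 2.02, SE 0.140, limma adjusted p = 1.7e-05). In the authors' deposited tables the confidence limits of Hspb1 in cerebellar NeuN- ran from 5.21 to 9.45 FPKM. Between the NeuN+ groups its change of 0.38 passed by little (limma adjusted p = 0.044) and was lost in 11 of the 18 alternatives, among them the replicate block (adjusted p = 0.056). Bag3, whose protein couples small heat shock proteins to HSP70, was also highest in cerebellar NeuN-, at 0.155 and 0.0912 scaled FPKM in cerebellar NeuN+, 3.95 and 4.14 in cerebellar NeuN-, 0.226 and 0.282 in prefrontal NeuN+ and 0.962 and 0.858 in prefrontal NeuN-. Beside these, 8 vessel genes summed to 0.851 to 1.21 scaled FPKM in cerebellar NeuN+, 61.6 to 67.7 in cerebellar NeuN-, 2.52 to 3.24 in prefrontal NeuN+ and 99.4 to 110.3 in prefrontal NeuN-. The 5 meningeal genes summed to 0.201 to 0.301 in cerebellar NeuN+, 15.2 to 15.7 in cerebellar NeuN-, 0.436 to 0.567 in prefrontal NeuN+ and 9.56 to 11.1 in prefrontal NeuN-. The part of either list in the Hspb1 level was not tested.

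Hspb3, a small heat shock gene known from muscle, separated the regions almost completely. It stood at 0 and 0.282 scaled FPKM in cerebellar NeuN+, 0 and 0 in cerebellar NeuN-, 17.5 and 14.5 in prefrontal NeuN+ and 20.9 and 19.9 in prefrontal NeuN-. In NeuN+ nuclei it was lower in cerebellum (log2 change -3.90, SE 0.138, limma adjusted p = 9.2e-07), and in cerebellar NeuN- it was listed at 0, so no change is given there. Between the prefrontal gates its change of -0.34 did not pass (limma adjusted p = 0.065). Hspb6, a small heat shock gene of smooth and heart muscle, stood at 6.99 and 6.40 scaled FPKM in cerebellar NeuN+, 0.655 and 0.291 in cerebellar NeuN-, 2.61 and 0.867 in prefrontal NeuN+ and 8.34 and 7.60 in prefrontal NeuN-. It was higher in NeuN+ in cerebellum (log2 change 2.40, SE 0.292, limma adjusted p = 3.3e-04) and lower in prefrontal cortex (log2 change -1.79, SE 0.292, limma adjusted p = 0.0014). Hspb8, the partner of Bag3 in clearing damaged filaments, stood at 3.60 and 3.07 scaled FPKM in cerebellar NeuN+, 2.11 and 1.58 in cerebellar NeuN-, 0.668 and 0.510 in prefrontal NeuN+ and 7.47 and 6.92 in prefrontal NeuN-. Its gate changes on the log2 scale were 0.61 in cerebellum and -2.37 in prefrontal cortex, a difference of 2.98 (SE 0.168, limma adjusted p = 1.9e-05). Cryab, which encodes alpha B crystallin, had no such reversal, at 22.5 and 20.9 scaled FPKM in cerebellar NeuN+, 86.3 and 92.0 in cerebellar NeuN-, 16.2 and 15.6 in prefrontal NeuN+ and 121 and 109.8 in prefrontal NeuN-. It was lower in NeuN+ in cerebellum (log2 change -1.99) and in prefrontal cortex (log2 change -2.78), and oligodendrocyte and astrocyte sums were also lower in both NeuN+ groups. Hspb2 overlaps Cryab in mm9 and cannot be read apart from it with certainty. Hspb9, at 1.15 and 1.45 in cerebellar NeuN-, was listed at 0 in all other libraries.

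**Figure D4:**
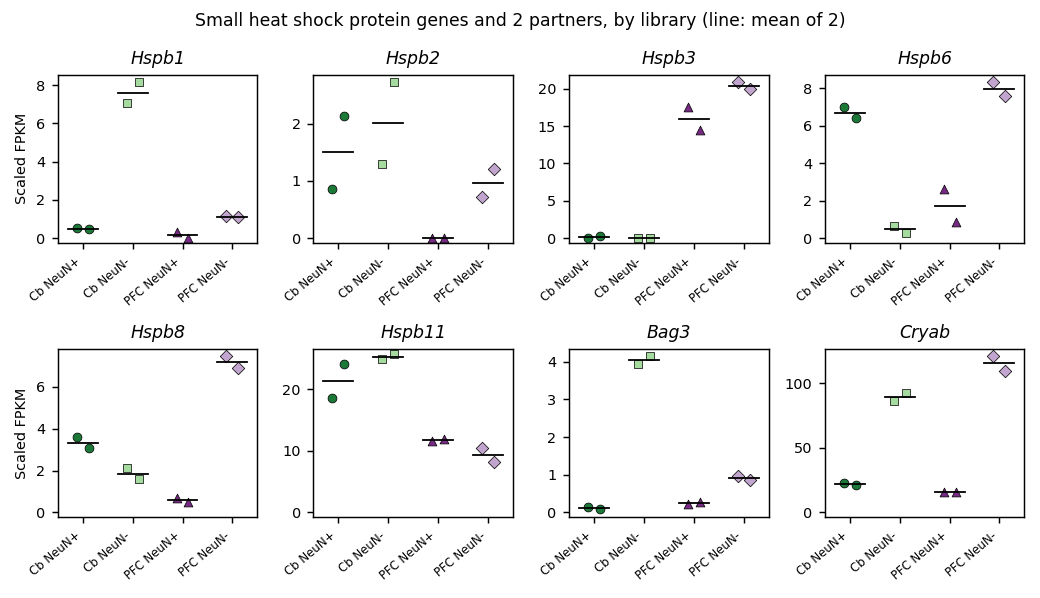
Scaled FPKM of 6 small heat shock genes, Bag3 and Cryab on linear axes, with 1 point per library and a line at the mean of 2. Hspb1 and Bag3 are highest in cerebellar NeuN-, Hspb3 is near 0 in cerebellum and at 14.5 to 20.9 in prefrontal cortex, and Hspb6 and Hspb8 are higher in NeuN+ in cerebellum but lower in NeuN+ in prefrontal cortex.

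The partners of the family were read from 10 lists with 90 genes in all. Beside their counts, 36.5% of all features were higher and 40.7% lower in cerebellum in NeuN+, and 40.5% higher and 39.0% lower in NeuN-. The TRiC chaperonin, which folds actin and tubulin, was uniform: all 8 subunit genes were lower in cerebellum in NeuN+ and in NeuN-, with medians of -0.74 and -1.41 on the log2 scale. Cct5 stood at 56.6 and 48.2 scaled FPKM in cerebellar NeuN+, 45.6 and 42.2 in cerebellar NeuN-, 111 and 109.7 in prefrontal NeuN+ and 136 and 139.9 in prefrontal NeuN-. These counts were the same under all 4 scalings. In prefrontal cortex 7 of the 8 were lower in NeuN+ than in NeuN- (37.6% of all features), but 3 with quantile normalization and 2 after rescaling to a common sum. In cerebellum 5 were higher in NeuN+, 1 lower and 2 not passing, where 32.4% of all features were higher and 39.2% lower. The subunit that was lower in cerebellar NeuN+ was Tcp1, at 12.4 and 13.7 scaled FPKM in cerebellar NeuN+, 23.4 and 23.7 in cerebellar NeuN-, 47.1 and 47.0 in prefrontal NeuN+ and 48.7 and 55.3 in prefrontal NeuN-. Of 6 prefoldin genes, whose product hands clients to TRiC, 4 were higher and 1 lower in cerebellar NeuN+ against prefrontal NeuN+, and 2 higher and 3 lower in NeuN- (4 and 2 after rescaling to a common sum). Of 12 HSP70 cochaperone genes, 3 were higher and 6 lower in cerebellum in NeuN+, and 5 higher and 7 lower in NeuN-, where 5 of 12 is about the share of all features. Hspbp1, an exchange factor, stood at 24.5 and 27.4 scaled FPKM in cerebellar NeuN+, 28.5 and 30.8 in cerebellar NeuN-, 77.1 and 79.2 in prefrontal NeuN+ and 93.9 and 107 in prefrontal NeuN- (log2 change -1.56 in NeuN+, -1.73 in NeuN-).

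Of 15 HSP90 cochaperone genes, 4 were higher and 8 lower in cerebellum in NeuN+, and 3 higher and 9 lower in NeuN-. Ahsa1, which stimulates the ATPase of HSP90, stood at 63.9 and 54.4 scaled FPKM in cerebellar NeuN+, 23.6 and 28.6 in cerebellar NeuN-, 70.2 and 69.6 in prefrontal NeuN+ and 88.1 and 91.8 in prefrontal NeuN-, so its low point was cerebellar NeuN-, as it was for Hsp90aa1 and Hsp90ab1. That group was also lowest for 29 of the 64 members with a group mean of at least 1. Chordc1, Ppid, Sugt1 and Ttc9c of the same list were instead lowest in cerebellar NeuN+. Unc45a, a myosin chaperone, was higher in cerebellum (log2 change 0.84 in NeuN+, 1.24 in NeuN-). Heat shock factor 1 itself, Hsf1, was higher in cerebellum, at 6.64 and 7.92 scaled FPKM in cerebellar NeuN+, 7.81 and 6.71 in cerebellar NeuN-, 4.41 and 4.21 in prefrontal NeuN+ and 3.38 and 4.13 in prefrontal NeuN- (log2 change 0.64 in NeuN+, 0.80 in NeuN-). Hsbp1, whose product binds that factor, was lower, at 183 and 169.9 scaled FPKM in cerebellar NeuN+, 150.3 and 147 in cerebellar NeuN-, 336 and 339 in prefrontal NeuN+ and 531 and 522 in prefrontal NeuN- (log2 change -0.94 and -1.82). Hsf2 was higher in cerebellar NeuN- (log2 change 0.62), and its change of -0.22 in NeuN+ passed by little (limma adjusted p = 0.046). Of Hsbp1 and the 3 heat shock factor genes tested, 2 were called lower in cerebellar NeuN+, but 1 under each of the other 3 scalings. Hsf5 was higher in cerebellar NeuN- (log2 change 0.47), and its change of -0.08 in NeuN+ did not pass.

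Of 9 mitochondrial partners, 3 were higher and 3 lower in cerebellum in NeuN+, and 4 higher and 3 lower in NeuN- (6 and 2 after rescaling to a common sum, 3 and 5 unscaled), near the 36.5% higher and 40.7% lower of all features in NeuN+ and the 40.5% and 39.0% in NeuN-. Of 6 clathrin uncoating partners, 3 were higher and 2 lower in NeuN+, and 1 higher and 3 lower in NeuN- (3 and 2 after rescaling to a common sum), with the auxilin relative Gak higher in cerebellum in both (log2 change 1.05 and 1.19). Of 5 immediate early genes read as a sign of handling, 4 were higher in cerebellar NeuN+ and 0 lower, and 2 were higher and 2 lower in NeuN-. Fos stood at 11.9 and 10.2 scaled FPKM in cerebellar NeuN+, 4.88 and 4.92 in cerebellar NeuN-, 7.58 and 6.34 in prefrontal NeuN+ and 2.07 and 1.74 in prefrontal NeuN-. Dusp1 stood at 24.3 and 22.5 scaled FPKM in cerebellar NeuN+, 23.0 and 23.6 in cerebellar NeuN-, 25.2 and 24.8 in prefrontal NeuN+ and 29.3 and 28.00 in prefrontal NeuN-. Fos was thus highest in cerebellar NeuN+ and Dusp1 in prefrontal NeuN-, and the part of handling in the chaperone levels was not tested.

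**Figure D5:**
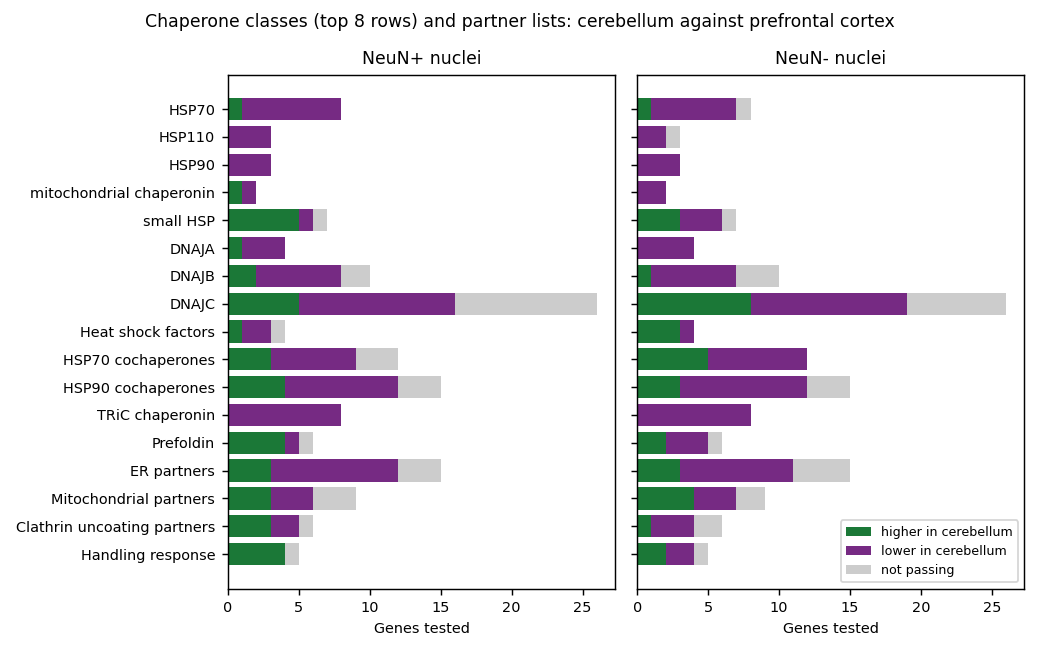
Number of genes tested in each chaperone class (top 8 rows) and partner list with several genes tested (rows below) that were higher, lower or not passing in cerebellum against prefrontal cortex, in NeuN+ nuclei (left) and NeuN- nuclei (right), called by limma at an adjusted p under 0.05. All 3 HSP90 and all 8 TRiC genes are lower in cerebellum in both panels (40.7% of all features in NeuN+ and 39.0% in NeuN-). In the NeuN+ panel 5 of 7 small heat shock genes are higher in cerebellum (36.5% of all features). Among these 5, Hspb1 passed by little, and Hspb2 was listed at 0 in prefrontal NeuN+ and overlaps Cryab.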

How the data were processed

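RNA of sorted nuclei was measured in 8 libraries, 2 per group, all labelled as 1 mouse. The authors deposited gene tables of FPKM with confidence limits, from Cufflinks on mm9 per the submitters' processing notes, which also name Trim Galore 0.3.7, TopHat2 2.1.1 and Bowtie 1.1.1. The sources used here do not give the Cufflinks version, the annotation, whether strand was used or how prefrontal cortex was dissected. Coordinates are the deposited mm9 spans, counted from 1.

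FPKM were scaled by median-of-ratios factors over 9109 features (0.876 to 1.044), and 14376 of 24854 features that reached 1 FPKM in 2 or more libraries entered the fit. One mean per group was fitted to log2(scaled FPKM + 1) with limma 3.58.1 (R 4.3.3, variance trend, 4 residual degrees of freedom), two-sided, with Benjamini-Hochberg adjustment over all kept features. Whole reads could not be recovered: 50.0% to 53.4% of implied fragment numbers under 20 were within 0.05 of a whole number. On simulated data for the prefrontal gate comparison (14376 features, 50 changed at each size), 80.0% of 1.25-fold changes were recovered. For 1.5-fold, 2-fold and 4-fold changes it was 100.0%, and there were 10 false calls. In the measured data 35.0% of features were called higher and 37.6% lower there, far more than were changed in the simulation. The simulated rates were also not split by level. They therefore cannot give the error rates of the tests reported, least of all for members with low FPKM.

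The members and lists were chosen with earlier results of these data known. Named in each comparison were 24 well-known members, up to 8 called members in each direction with the largest change and at least 5 scaled FPKM, and up to 2 of each partner list. Any other gene in the text was picked after its values were seen. The 18 alternatives changed scaling, filter, pseudocount, variance trend, replicate block, feature status or left out a library.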

Additional observations from a re-analysis of the deposited data

Results flagged for a closer look

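The results below are members whose gate change (NeuN+ over NeuN-, log2 scale) differed between cerebellum and prefrontal cortex by limma's test of the difference itself, given as the cerebellar minus the prefrontal change. That test is the one used above, so values given in both places are not separate findings. Their causes were not tested.

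The small heat shock genes Hspb6 and Hspb8 had the widest differences among the members given here. Hspb6 differed by 4.18 (SE 0.414, adjusted p = 1.6e-04), with changes of 2.40 in cerebellum and -1.79 in prefrontal cortex. Hspb8 differed by 2.98 and Hspb1 by -1.64. With a pseudocount of 0.1 the Hspb1 difference no longer passed (adjusted p = 0.28).

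Of 15 members of the cytosol and nucleus, a grouping made after the values were seen, 9 had a higher and 4 a lower gate change in cerebellum (33.1% and 37.0% of all features). Positive differences were 0.78 for Hspa8, 0.99 for Hsp90aa1, 0.59 for Hsp90ab1, 0.99 for Dnaja1 and 1.14 for Dnajb6. Hspa2 differed by 1.07, Dnajb2 by 0.70, Dnajc24 by 1.86, Dnajc5 by 0.21 and mitochondrial Hspe1 by 1.18. In the endoplasmic reticulum the differences were 0.44 for Hspa5, 0.46 for Hsp90b1, 0.48 for Dnajc3 and -0.58 for Dnajb11.

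Negative differences, with NeuN+ relatively lower in cerebellum, were -2.03 for Dnajc12, -1.46 for Dnajc13, -1.01 for Dnajc21, -0.79 for Dnajc7 and -1.52 for Hspa1l. Among HSP110 genes Hsph1 had -1.48 and Hspa4l -0.38, and Dnajb1 had -0.49. The differences of Dnajb1, Dnajc3, Dnajc5, Hspa2, Hspa4l and Hspa5 lost their call under at least 1 alternative. Groups of 2 libraries allowed no check for a sample far from the others.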

How the results depend on the processing

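Counts of called members stayed within 1.5 times of those reported under 16 of the 18 alternatives. The exceptions were unscaled FPKM, with 10 members higher in prefrontal NeuN+ (reported 17) and 1 member higher in prefrontal but lower in cerebellar NeuN+ (reported 3), and leaving out replicate 1 of cerebellar NeuN-, with 10 members whose gate change was lower in cerebellum (reported 17). Leaving out each library in turn gave 10 to 15 for that last count, 26 to 27 members lower and 5 to 8 higher in cerebellum in both gates, and 9 to 12 lower in prefrontal but higher in cerebellar NeuN+. With a filter of at least 5 FPKM, 3783 features were higher in cerebellar NeuN- (5822 reported) and 3477 had a lower gate change in cerebellum (5317 reported), over fewer features tested.

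The replicate numbers are shared between groups, but the labels do not say what same-numbered libraries share. With the replicate number as a block, counts of higher and lower members were 17 and 25 for the prefrontal gates, 29 and 17 for the cerebellar gates, 12 and 35 between regions in NeuN+, 14 and 37 in NeuN- and 30 and 15 for the difference of the gates. Among named members, the block ended the calls of Hspa4 between the prefrontal gates (adjusted p = 0.069) and of Hspa9 and Hspb1 between the NeuN+ groups (adjusted p = 0.056 for both). With 2 numbers a pairing could not be established.

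Signs turned for small changes, and the cause was not tested. With unscaled FPKM the prefrontal gate change was -0.17 for Dnajb1 and -0.048 for Hspa9, the NeuN- region change of Hspa9 was -0.13, and the difference of the gates was 0.080 for Dnajc6, 0.13 for Hspa4 and 0.20 for Hspd1. With quantile normalization the prefrontal gate change was 0.035 for Hsp90ab1, 0.12 for Hsp90b1 and 0.18 for Hspa5, and the difference of the gates was 0.047 for Dnajc6 and 0.14 for Hspa4. After rescaling to a common sum the prefrontal gate change was 0.011 for Hsp90ab1, 0.15 for Hsp90b1 (adjusted p = 0.024) and 0.12 for Hspa5, the NeuN- region change of Hspa4l was 0.22 (adjusted p = 0.034), and the difference of the gates was -0.048 for Hspa9. With a pseudocount of 5 that of Hspd1 was 0.018.

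Where leaving out single libraries turned a sign, the values ran from -0.12 to 0.51 for Hspa2 between the cerebellar gates and from -0.34 to 0.00095 for Dnajc6 and -0.15 to 0.17 for Dnajb1 between the prefrontal gates. Between regions they ran from -0.028 to 0.31 for Dnajc6 in NeuN+, and in NeuN- from -0.14 to 0.041 for Hspa4l and -0.033 to 0.20 for Hspa9. For the difference of the gates they ran from -0.27 to 0.064 for Dnajc6, -0.16 to 0.0051 for Hspa4 and -0.084 to 0.036 for Hspd1.

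Depth is unknown and sets what low members such as Hspa1a, Hspb1 and Hspb6 can show, and 21 members never reached 5 FPKM.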
